A study of Mus musculus with 10 samples.

Results

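The comparison is between fasted livers of mice labelled LTKO and of high-fat-diet (HFD) wild-type mice when both had received the vector for follistatin, and it asks which differences between these backgrounds were still present under follistatin. It uses 5 of the 10 arrays of the series, 2 titled LTKO-FST288 and 3 titled HFD-FST288, chosen by their titles, and the 22180 genes that could be read from the 41345 transcript clusters of the array through a single gene symbol. The other 5 arrays came from LTKO (n = 2) and HFD (n = 3) livers that received a GFP vector. They give the same background comparison without follistatin, and its group means share no array with those under follistatin. The spread behind the p-values of both comparisons was estimated over all 10 arrays together.

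All mice were male and fasted, and liver RNA was collected about 2 weeks after infection with an adeno-associated virus (AAV) whose TBG promoter acts in hepatocytes. The HFD FST288 group was wild type on a high-fat diet and received FST288, an isoform of follistatin. The LTKO FST288 group carried the background that the labels call LTKO and received the same vector. By their labels, the GFP groups differed from these in the vector alone. LTKO is a name used for mice whose livers lack the insulin receptor substrates Irs1 and Irs2 together with the transcription factor Foxo1. The labels do not spell it out, and for the LTKO mice they name no diet. Genotype and diet therefore cannot be told apart in any difference below. Strain and age are not stated. No label states outright that the arrays came from different animals, and the p-values cover just the spread between these samples, which may be technical.

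As background, insulin binds its receptor on hepatocytes and signals through Irs1 and Irs2 to AKT, which keeps the forkhead factor FoxO1 out of the nucleus. FoxO1 turns on genes of fasting, such as those for glucose output, and insulin turns on genes of lipid synthesis through other factors. Follistatin is a secreted protein that binds activins and related ligands and keeps them from their receptors, and the liver is a source of it.

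Values are levels on the log2 scale, so a difference of 1 is a 2-fold difference, and the errors of differences are standard errors (SE) of a limma fit over all 10 arrays. A gene was called at a Benjamini-Hochberg adjusted p under 0.05 over all 22180 genes. A fall in the array signal of a bulk liver cannot tell fewer cells of a type from less RNA per cell.

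The promoters of the called FoxO1-responsive genes with the smallest p are shown because the factor itself is among the genes that differ. Each is the 250 bases before the RefSeq start in GRCm38.p6, read 5′ to 3′ on the strand of the gene, with matches to the FoxO site GTAAACA or the insulin response element core CAAAACA on either strand in capitals. Pdk4 lies at chr6:5496279-5496528 (minus strand), Gadd45b at chr10:80929841-80930090 (plus), Adipor2 at chr6:119388735-119388984 (minus) and Igfbp1, the classic insulin-repressed gene, which was added after its values were seen, at chr11:7197537-7197786 (plus).
Pdk4: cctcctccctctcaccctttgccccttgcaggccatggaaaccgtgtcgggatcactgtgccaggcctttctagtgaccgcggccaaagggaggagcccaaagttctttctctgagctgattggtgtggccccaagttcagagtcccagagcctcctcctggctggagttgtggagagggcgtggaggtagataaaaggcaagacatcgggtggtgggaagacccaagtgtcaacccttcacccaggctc
Gadd45b: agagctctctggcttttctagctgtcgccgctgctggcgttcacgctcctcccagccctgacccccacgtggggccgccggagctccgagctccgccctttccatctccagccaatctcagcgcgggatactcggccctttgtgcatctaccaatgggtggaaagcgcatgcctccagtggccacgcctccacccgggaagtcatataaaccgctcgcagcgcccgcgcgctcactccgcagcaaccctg
Adipor2: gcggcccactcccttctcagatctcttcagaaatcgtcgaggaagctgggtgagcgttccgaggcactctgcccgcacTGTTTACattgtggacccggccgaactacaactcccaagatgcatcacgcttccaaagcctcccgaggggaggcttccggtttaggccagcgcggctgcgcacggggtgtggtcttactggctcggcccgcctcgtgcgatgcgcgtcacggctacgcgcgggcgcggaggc
Igfbp1: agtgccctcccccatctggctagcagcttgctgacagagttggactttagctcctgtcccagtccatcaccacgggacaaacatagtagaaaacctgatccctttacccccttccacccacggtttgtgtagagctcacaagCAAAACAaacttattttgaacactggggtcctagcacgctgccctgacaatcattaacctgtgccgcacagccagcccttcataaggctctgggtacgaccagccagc
The capitals in Adipor2 are a FoxO site on the opposite strand, 172 to 166 bases before the start, and those in Igfbp1 are the insulin response element core, 108 to 102 bases before it. The letters GTAAACA were in 3.2% of the 32851 promoter windows of the table, and CAAAACA in 5.6%. Of the 14 called members of the FoxO1-responsive list, 13 had a window. The FoxO site was in 1 of these (Adipor2), and the insulin response element core in 3 (Igfbp1, Irs2 and Ccng2). A match is a run of letters and not a measured binding site.

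The medians of the 10 arrays were between 2.71 and 2.75, and each array had a mean correlation of at least 0.989 with the others of its group. The HFD FST288 replicates 2 and 3 stood apart in pancreatic acinar markers. The median of 16 such markers was 7.46 and 6.08 on these arrays, 2.41 on HFD FST288 replicate 1, and 2.15 and 2.14 on the LTKO FST288 arrays. The acinar enzyme gene Cpb1 read 2.52, 9.31 and 8.36 on the HFD FST288 arrays, and 1.75 and 2.30 on the LTKO FST288 arrays. Its difference of -4.70 ± 1.33 (adjusted p = 0.038) was -0.49 when replicates 2 and 3 were left out. No acinar marker was called higher and 6 of 16 were called lower in LTKO. Hepatocyte markers had array medians of 12.32 to 12.35 in HFD FST288 and 12.17 to 12.34 in LTKO FST288. The comparison is therefore also given without HFD FST288 replicates 2 and 3, which leaves a single HFD FST288 array whose spread is taken from the other groups.

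**Figure D1:**
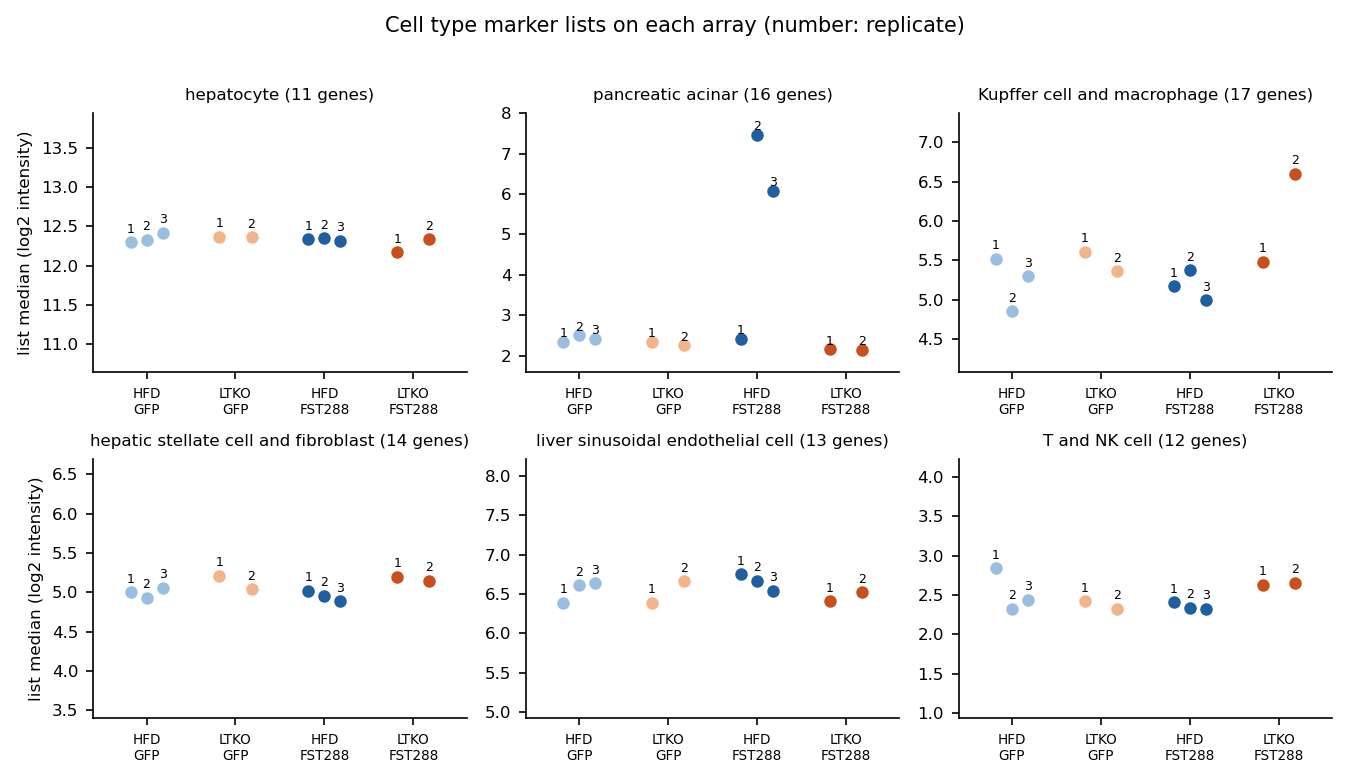
Median log2 level of 6 lists of cell type markers (vertical axes, a scale of its own in each panel) on each array, by group, with the replicate number above each point. Acinar markers are at 7.46 and 6.08 on HFD FST288 replicates 2 and 3, and Kupffer cell markers at 6.60 on LTKO FST288 replicate 2.

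The genes for which the LTKO background is named were lower in the LTKO livers under follistatin. Foxo1, the transcription factor that insulin restrains, read 6.83, 6.85 and 6.86 on the HFD FST288 arrays, and 4.92 and 4.58 on the LTKO FST288 arrays. Its groups were far apart, a difference of -2.09 ± 0.13 (adjusted p = 1.8e-07). Irs1, an adaptor of the insulin receptor, read 4.91, 4.78 and 4.75 in HFD, and 3.35 and 3.02 in LTKO, a difference of -1.63 ± 0.15. Irs2, the other adaptor, read 4.28, 4.02 and 4.37 in HFD, and 2.49 and 3.14 in LTKO, a difference of -1.41 ± 0.24. Foxo1 and Irs1 are read by more than 1 cluster, and with the mean of their clusters the differences were -1.18 and -0.90.

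Follistatin itself, the gene that the vector delivered, overlapped between the backgrounds. Fst read 6.80, 5.78 and 6.45 on the HFD FST288 arrays, and 6.85 and 6.74 on the LTKO FST288 arrays, and the lowest value was that of HFD FST288 replicate 2. The difference of 0.45 ± 0.21 was not called (adjusted p = 0.253). With GFP, Fst read between 5.22 and 5.39 on all 5 arrays, below every FST288 array. Of the 10 fits with a single array left out, 1 called the difference in Fst, that without HFD FST288 replicate 1 (adjusted p = 0.037). Without HFD FST288 replicates 2 and 3, the arrays high in acinar markers, the difference was -0.01.

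The backgrounds differed in 2293 of the 22180 genes under follistatin, 10.3% of those tested. Of these, 1120 genes were higher in LTKO (5.05%) and 1173 were lower (5.29%). These shares over all genes are the ones to set beside every list count below. Calls fell over all genes without the arrays high in acinar transcripts, so a fall in a list count there is not particular to the list. At an unadjusted p under 0.05 the number was 4625. The difference was at least 1 on the log2 scale in 552 called genes and at least 2 in 114, while the median size over all genes was 0.15. The groups did not overlap in 2292 of the called genes and in 36.3% of all genes. Without the 2 arrays high in acinar transcripts, 902 of the 2293 genes were still called, and all 2293 kept their direction. Of the 253 called genes among the 262 that the naming rule picked, 176 were still called without these arrays, and 204 were called whichever single array was left out.

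Most of the called differences were also called with the GFP vector, whose group means come from other arrays. The 2 sets of calls are not independent, because their standard errors came from a spread estimated over all arrays together. With each contrast fitted on its own 5 arrays, 1952 of the 2293 genes called under FST288 were still called. With GFP, 2902 genes differed between the backgrounds (13.1%), 1483 higher (6.69%) and 1419 lower (6.40%) in LTKO. In all, 1414 genes were called in the same direction under both vectors, 684 higher and 730 lower in LTKO, which is 61.7% of the genes called under FST288 and 48.7% of those called under GFP. The median size of these differences was 0.74 under FST288 and 0.77 under GFP. A further 871 genes were called under FST288 alone, and 721 of them had the same sign under GFP, with median sizes of 0.61 and 0.23. Conversely 1480 genes were called under GFP alone, and 1161 of them had the same sign under FST288. In 8 genes both differences were called with opposite signs. Over all 22180 genes the Pearson correlation of the differences was 0.64 and the Spearman correlation 0.37, given as a description because genes are not independent replicates. A call under a single vector does not show that the vectors differ, which is tested by the interaction described after the gene groups.

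**Figure D2:**
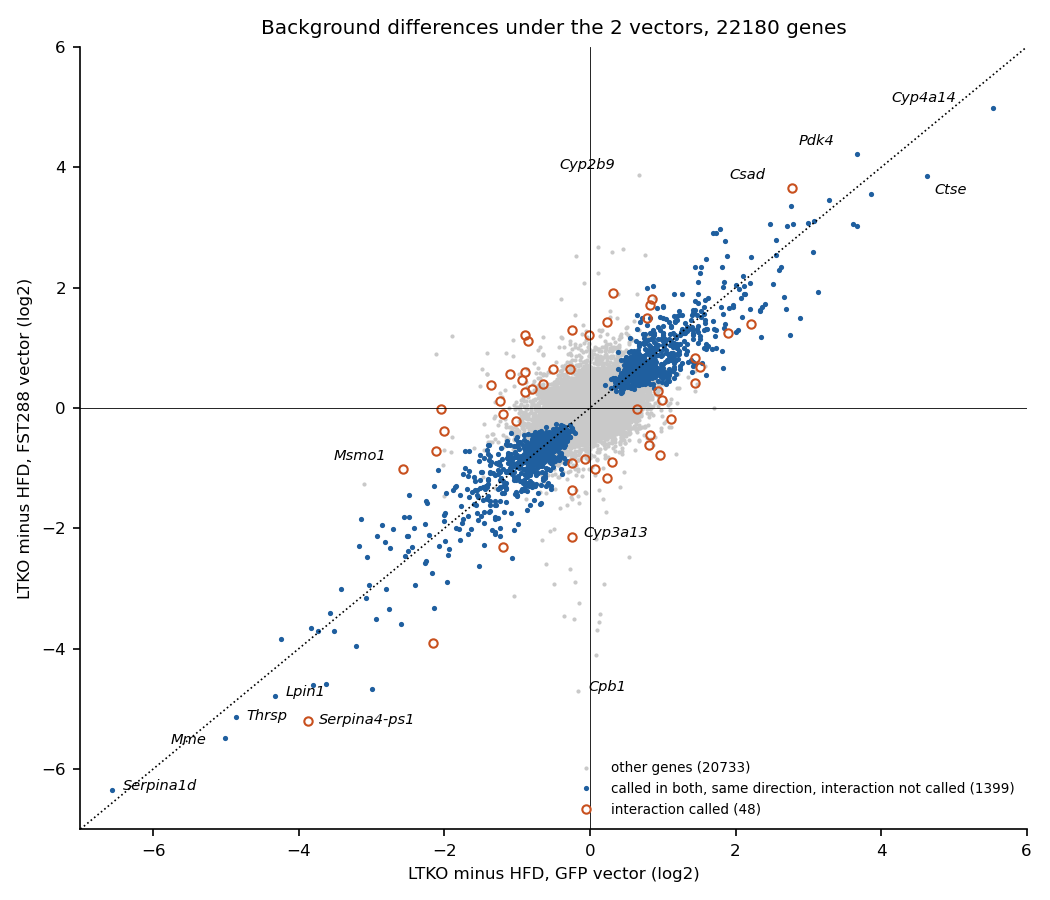
Difference between LTKO and HFD livers with the FST288 vector (vertical, log2) against that with the GFP vector (horizontal, log2) for 22180 genes; the dotted line marks equal differences. The strongly different genes, such as Serpina1d, Thrsp and Cyp4a14, lie near the line, and circles mark the 48 genes with a called interaction.

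Of the named genes called higher in LTKO, Cyp4a14 had the largest difference. Cyp4a14, a fatty acid omega-hydroxylase, read 6.83, 7.33 and 7.02 on the HFD FST288 arrays, and 11.97 and 12.12 on the LTKO FST288 arrays. This was 31.6-fold higher in LTKO (4.98 ± 0.12, adjusted p = 3.63e-11). Pdk4, a kinase that shuts pyruvate out of the citrate cycle in fasting, read 4.36, 4.41 and 4.11 in HFD, and 8.39 and 8.64 in LTKO, 18.7-fold higher. Ctse, the protease cathepsin E, read 2.77, 3.04 and 3.14 in HFD, and 6.54 and 7.14 in LTKO, 14.5-fold higher. These genes were also higher in LTKO with GFP, by 5.54, 3.67 and 4.63. Lepr, the leptin receptor, was 8.18-fold higher under FST288 and 12.7-fold higher under GFP.

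Of the named genes called lower, Serpina1d had the largest difference. Serpina1d, an alpha-1-antitrypsin gene, read 12.39, 12.31 and 12.36 in HFD, and 6.31 and 5.71 in LTKO, 81.4-fold lower (-6.35 ± 0.13, adjusted p = 4.46e-12). Mme, the peptidase neprilysin, read 7.94, 7.86 and 7.81 in HFD, and 2.04 and 2.73 in LTKO, 44.8-fold lower. Upp2, a uridine phosphorylase, read 9.23, 9.29 and 9.23 in HFD, and 5.65 and 5.54 in LTKO, 12.6-fold lower. Rgs16, a brake on G protein signalling, was 24.1-fold lower, with values of 5.59 and 4.35 in LTKO against 9.50 to 9.61 in HFD. Adgrf1, an adhesion receptor, was 13.1-fold lower. Serpina1, Mup, Mug, Acot, Cyp2b, Cyp3a and Cyp4a genes have near-identical copies that can share probes, so the reading of a single member is uncertain. Klk1, another of the 12 genes with the largest falls, followed the acinar markers and read 2.53, 8.23 and 7.15 in HFD.

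**Figure D3:**
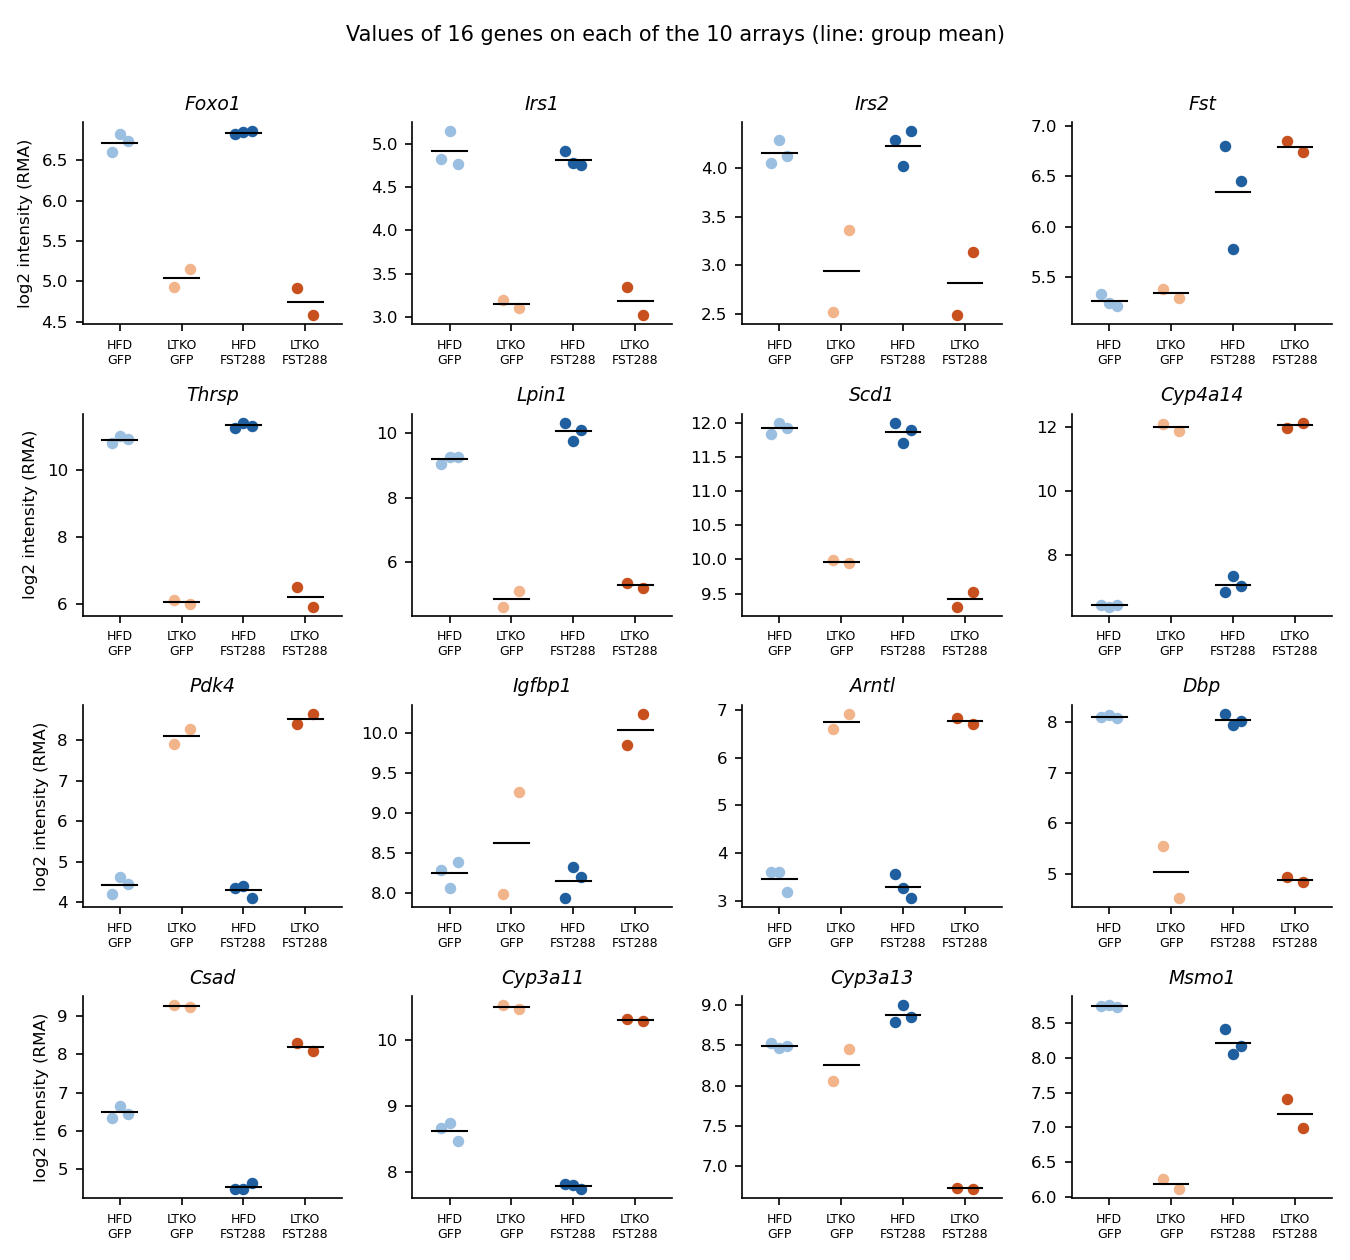
Log2 level of 16 genes on each of the 10 arrays by group (points), with the group mean as a line; each panel has a vertical scale of its own. Foxo1, Thrsp and Lpin1 are lower and Cyp4a14, Pdk4, Arntl and Csad higher in LTKO under either vector, Igfbp1 and Cyp3a13 separate clearly with FST288, and Fst overlaps between the FST288 groups.

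In the insulin signalling list, 2 of 30 measured genes were called higher and 6 lower in LTKO, with a median difference of -0.04. Beside Foxo1, Irs1 and Irs2, Pik3r1, the regulatory subunit of PI3-kinase, read 8.16, 7.93 and 8.11 in HFD, and 6.72 and 7.26 in LTKO (-1.07 ± 0.14). Foxo3, a relative of Foxo1, was lower by a difference of -1.06 ± 0.18, and the receptor gene Insr by -0.36 ± 0.10. Socs3, an inhibitor of cytokine and insulin signalling, was higher by 0.61 ± 0.17 (0.33 and not called with the mean of its clusters), and the kinase gene Mtor by 0.62 ± 0.16. Without the arrays high in acinar transcripts 0 were called higher and 5 lower.

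Genes known to respond to FoxO1 differed in both directions, 7 higher and 7 lower of 28 measured, with a median of 0.01, where 10.3% of all genes were called. The counts were 5 and 4 without the acinar-high arrays. Gadd45b, a stress-induced growth regulator, read 3.81, 3.88 and 3.55 in HFD, and 6.71 and 6.82 in LTKO (3.02 ± 0.19). Igfbp1, a binding protein for insulin-like growth factors, read 7.94, 8.32 and 8.20 in HFD, and 9.85 and 10.24 in LTKO, 3.71-fold higher (1.89 ± 0.26, adjusted p = 0.000318). With GFP its difference was 0.38 and the groups were not called, and the interaction was not called either (adjusted p = 0.13). Cdkn1a, the cell cycle inhibitor p21, was 3.59-fold higher. Fgf21, a fasting hormone of the liver, read 3.44, 3.93 and 3.49 in HFD, and 4.70 and 6.40 in LTKO (1.93 ± 0.35, adjusted p = 0.00256). Adipor2, an adiponectin receptor, was lower by a difference of -1.30 ± 0.09, and Sesn3, a sestrin, by -1.21 ± 0.14. The gluconeogenic genes of the list were not called. G6pc, which releases glucose from glucose 6-phosphate, read 10.55, 10.31 and 10.51 in HFD, and 9.88 and 10.38 in LTKO, and Pck1, which starts glucose synthesis from oxaloacetate, read 11.33, 11.11 and 11.27 against 10.98 and 11.37. Both overlapped between the groups (adjusted p = 0.266 and 0.847).

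Of the genes that insulin or feeding induces, 11 of 18 were called lower in LTKO under follistatin and 4 higher, with a median of -1.50 against a median of 0 over all genes. The same 11 were called lower with GFP too. Srebf1, 1 of these 11, lost its call without the acinar-high arrays, where its difference was -0.8 against -0.71 with all arrays. Thrsp, a lipogenic regulator, read 11.28, 11.43 and 11.34 in HFD, and 6.50 and 5.92 in LTKO, 35.2-fold lower (-5.14 ± 0.13, adjusted p = 4.8e-11). Lpin1, a phosphatidate phosphatase that also acts as a coregulator, read 10.33, 9.76 and 10.10 in HFD, and 5.35 and 5.22 in LTKO, 27.4-fold lower. Ppp1r3b, which targets a phosphatase to glycogen, was 3.64-fold lower, and Pklr, liver pyruvate kinase, 7.72-fold lower.

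In fatty acid synthesis 13 of 22 genes were called lower and 1 higher, with a median of -0.77; with GFP the counts were 15 and 0, with a median of -1.18. On leaving out the acinar-high arrays 10 were called lower. Scd1, the stearoyl-CoA desaturase, read 12.00, 11.70 and 11.89 in HFD, and 9.31 and 9.52 in LTKO (-2.45 ± 0.09). Elovl6, a fatty acid elongase, was 8.05-fold lower, and Acss2, which makes acetyl-CoA from acetate, 5.21-fold lower. Acly, which makes cytosolic acetyl-CoA from citrate, was 4.34-fold lower, and Fasn, the fatty acid synthase, 4.02-fold lower. Srebf1, their transcription factor, read 6.37, 6.10 and 6.36 in HFD, and 5.47 and 5.66 in LTKO. Its difference was -0.71 ± 0.16 under FST288 and -1.72 under GFP, and the interaction was not called (adjusted p = 0.0882).

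Of the cholesterol synthesis genes, 10 of 21 were called lower and 1 higher, with a median of -0.50 under FST288 and -0.73 under GFP. With GFP 15 were called lower, and without the acinar-high arrays 8 were lower and 1 higher under FST288. Fdps, the farnesyl diphosphate synthase, was 4.94-fold lower (-2.31 ± 0.21), and Nsdhl, a sterol dehydrogenase, 2.71-fold lower. Insig2, which holds back the activation of sterol regulators, was the member called higher, at 3.01-fold. In 3 genes of the list the interaction was called, all with a smaller deficit in LTKO under FST288. Of these, Msmo1, a sterol oxidase, was lower in LTKO by a difference of -1.02 ± 0.13 under FST288 and -2.57 under GFP. Hmgcs1, an early enzyme of the pathway, read 8.87, 8.72 and 8.83 in HFD, and 8.51 and 8.68 in LTKO, a difference of -0.21 that was not called (adjusted p = 0.152), against -1.02 under GFP.

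**Figure D4:**
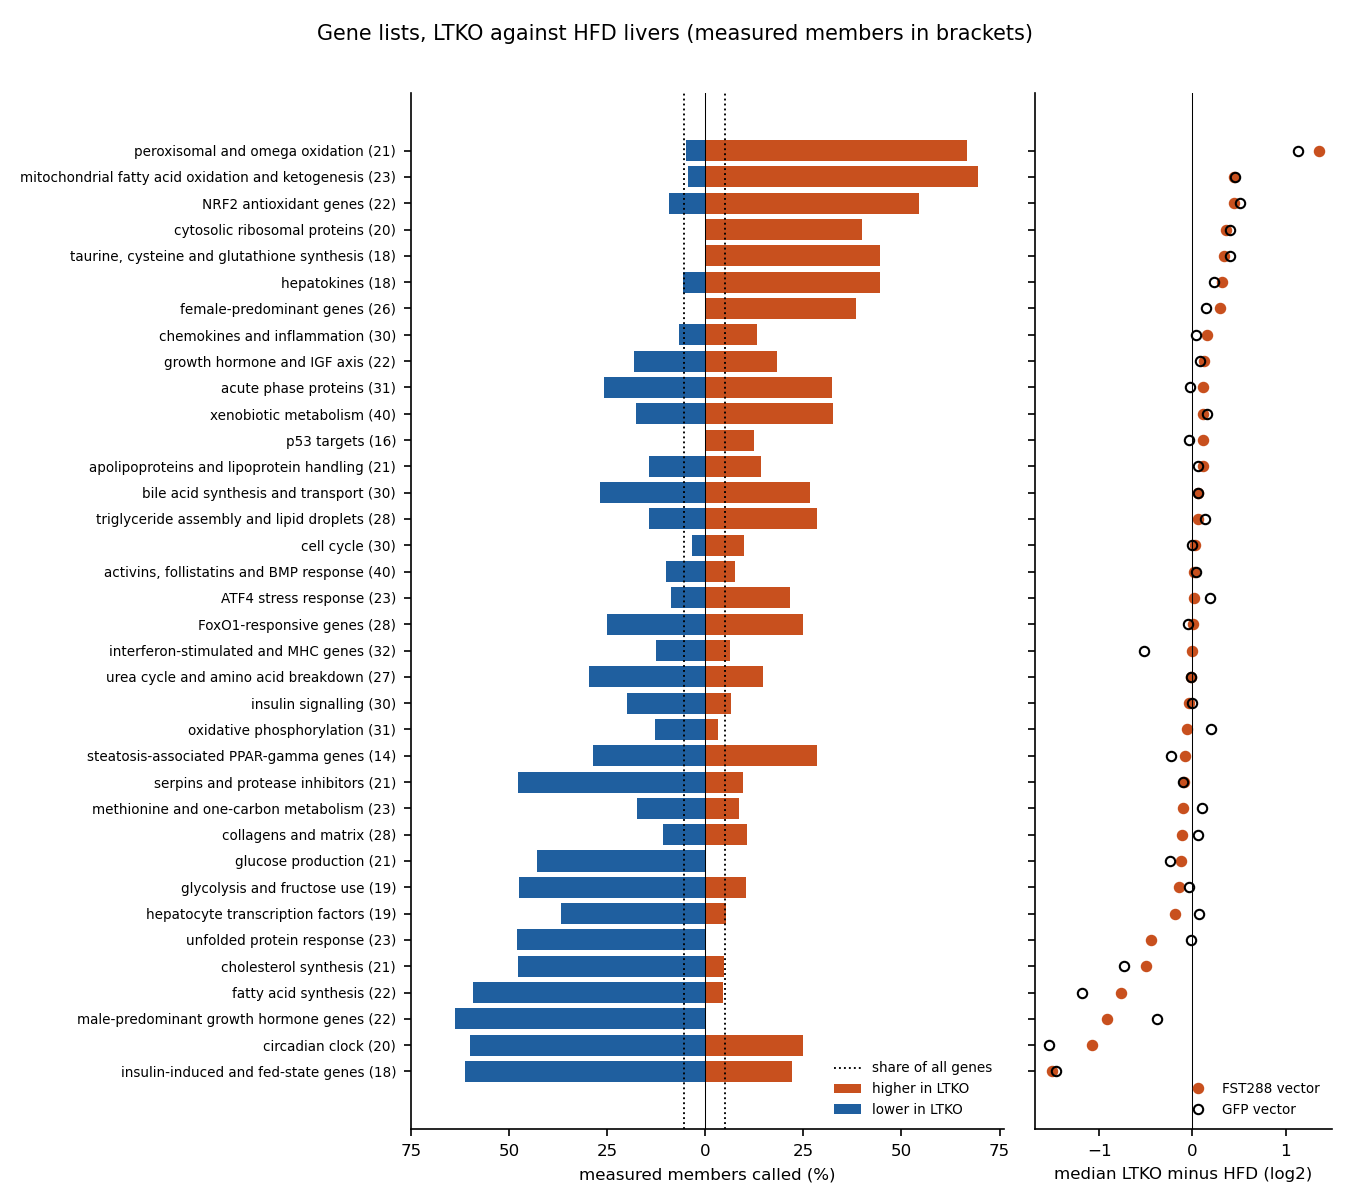
Left, percentage of the measured members of 36 gene lists called higher (right of 0) or lower (left of 0) in LTKO FST288 than in HFD FST288 livers, with the share of all genes as dotted lines (5.05% and 5.29%). Right, list medians of the log2 difference under both vectors; lipid synthesis and clock lists lie to the left and fatty acid oxidation lists to the right under either vector.

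Of the genes for fatty acid oxidation in mitochondria, 16 of 23 were called higher in LTKO and 1 lower, with a median of 0.45, and 14 of the 16 were also higher with GFP; without the acinar-high arrays 8 were called higher. Acadm, an acyl-CoA dehydrogenase, read 10.30, 10.17 and 10.16 in HFD, and 10.96 and 11.25 in LTKO (0.90 ± 0.09). Cpt2, of the carnitine shuttle, was 1.82-fold higher, and its partner Cpt1a 1.36-fold. In the peroxisomal and omega oxidation list 14 of 21 were higher and 1 lower, with a median of 1.35. All 14 were also called with GFP, and 13 were called without the acinar-high arrays. Ehhadh, a peroxisomal enzyme of the beta-oxidation cycle, read 8.16, 8.02 and 8.03 in HFD, and 11.08 and 11.25 in LTKO (3.10 ± 0.09, against 3.08 under GFP). Crat, a carnitine acetyltransferase, was 6.93-fold higher, a difference of 2.79 that was 1.35 with the mean of its clusters. Acot1, Acot2 and Acot3, thioesterases that release free fatty acids, were 11.7-fold, 8.45-fold and 10.2-fold higher.

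Genes of triglyceride assembly and lipid droplets were mixed, 8 of 28 higher and 4 lower, and 7 and 4 without the acinar-high arrays. Plin2, the common droplet coat protein, read 8.64, 8.68 and 8.66 in HFD, and 9.76 and 9.80 in LTKO (1.12 ± 0.08). Gpat3, an acyltransferase of the first step, was 5.69-fold higher, and G0s2, an inhibitor of triglyceride lipase, 3.07-fold. Both are read by more than 1 cluster, and with the mean of their clusters the differences were 1.29 in place of 2.51 and 1.01 in place of 1.62. Cidec, a droplet fusion protein, read 3.94, 3.70 and 3.91 in HFD, and 4.74 and 4.91 in LTKO (0.98 ± 0.14). With GFP its difference was 0.07, and the interaction was not called (adjusted p = 0.0911). Lpin1 and Lpin2 were lower. Of the genes linked to PPAR-gamma in fatty liver, 4 of 14 were higher and 4 lower, and 3 and 2 without those arrays. Cd36, a fatty acid receptor, was lower (-1.17 ± 0.14), as was Apoa4, a lipoprotein component (-1.30 ± 0.15), while Vldlr, a lipoprotein receptor, was higher (1.82 ± 0.30). Pparg itself overlapped, at 3.77, 3.74 and 3.73 against 3.65 and 4.30 (adjusted p = 0.629).

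In the glucose production list 9 of 21 were lower and 0 higher, with 5 lower without the acinar-high arrays. Slc2a2, the glucose transporter GLUT2, read 10.77, 10.71 and 10.76 in HFD, and 9.30 and 9.30 in LTKO (-1.45 ± 0.08). Slc37a4, which carries glucose 6-phosphate into the endoplasmic reticulum, was 3.32-fold lower. The glycogen genes Gbe1, Pygl and Gys2 were 2.78-fold, 2.08-fold and 1.79-fold lower. In glycolysis and fructose use 9 of 19 were lower and 2 higher, and 6 and 1 without those arrays. Khk, which phosphorylates fructose, read 10.41, 10.39 and 10.33 in HFD, and 9.10 and 8.87 in LTKO (-1.39 ± 0.09). Pfkfb3, which makes an activator of glycolysis, was 4.28-fold lower, and Slc16a1, a monocarboxylate carrier, was 3.32-fold higher.

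Of the clock genes 5 of 20 were called higher and 12 lower, and all 17 were called in the same direction with GFP. The counts were 4 and 12 without the acinar-high arrays. Arntl, the positive arm of the clock, read 3.57, 3.28 and 3.07 in HFD, and 6.82 and 6.71 in LTKO (3.46 ± 0.18). Dbp, a clock output factor, read 8.16, 7.95 and 8.02 in HFD, and 4.93 and 4.83 in LTKO (-3.16 ± 0.21). Per3, Nr1d2 and Wee1 were lower by differences of -1.84, -1.75 and -2.33, and Nfil3, which opposes Dbp at its sites, was higher by 1.31. The labels used here give no time of day at collection, so its part in these values was not tested.

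Of the genes that are more abundant in male livers under pulsed growth hormone, 14 of 22 were called lower and 0 higher, and of those more abundant in female livers 10 of 26 were called higher and 0 lower. All samples were from males. With GFP the counts were 10 lower and 2 higher, and 6 higher and 0 lower. Leaving out the acinar-high arrays, 8 male-predominant genes were lower and 9 female-predominant genes higher. Mup20, a major urinary protein, read 12.40, 12.24 and 12.42 in HFD, and had a mean of 10.15 ± 0.21 (SD, n = 2) in LTKO (-2.20 ± 0.29). Hsd3b5, a male-specific steroid enzyme, read 8.98, 8.84 and 8.84 in HFD, and 6.80 and 4.75 in LTKO. Cyp2b9, a female-predominant cytochrome, read 2.32, 2.55 and 2.52 in HFD, and 4.91 and 7.77 in LTKO (3.87 ± 0.53). In both of these genes LTKO FST288 replicate 2 was the farther from HFD. Cyp2a4, another female-predominant cytochrome, read 6.73, 6.40 and 6.95 in HFD, and 8.81 and 8.60 in LTKO. Serpina1e, an alpha-1-antitrypsin gene of this list, was 3.50-fold lower.

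The growth hormone receptor gene Ghr was itself lower, at 8.26, 8.33 and 8.28 in HFD, and 7.34 and 7.35 in LTKO (-0.94 ± 0.08). Egfr, the receptor for epidermal growth factor, was lower too (-1.25 ± 0.09). Igfbp2, a binding protein for insulin-like growth factors, read 6.83, 6.65 and 6.99 in HFD, and 8.71 and 8.73 in LTKO (1.89 ± 0.11). Igf1 read 9.16 to 9.21 in HFD, and 8.91 on both LTKO arrays, and was not called (adjusted p = 0.116). In this list 4 of 22 were higher and 4 lower, and 3 and 3 without the acinar-high arrays. Onecut1, a hepatocyte transcription factor, was 4.38-fold lower, and Zbtb16, a zinc finger factor, 3.05-fold lower. Hepatocyte transcription factors were 7 lower and 1 higher of 19, and 6 and 2 without those arrays. Tbx3, a factor of pericentral hepatocytes, was the member called higher (1.53 ± 0.20).

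Of 40 xenobiotic genes 13 were higher and 7 lower, and of 22 NRF2 antioxidant genes 12 were higher and 2 lower. Without the acinar-high arrays the counts were 8 and 3, and 8 and 0. Cyp3a11, a broad drug oxidase, read 7.82, 7.81 and 7.74 in HFD, and 10.32 and 10.30 in LTKO (2.52 ± 0.09). Nr1i3, the xenobiotic receptor CAR, was 2.66-fold higher. Gclc, which sets the rate of glutathione synthesis, read 8.57, 8.57 and 8.69 in HFD, and 9.80 and 9.71 in LTKO (1.14 ± 0.08). Mt2, a metallothionein, was 4.02-fold higher, and Hmox1, haem oxygenase 1, 2.70-fold higher. Cyp2f2, an oxidase of periportal hepatocytes, was lower (-1.21 ± 0.09).

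In taurine, cysteine and glutathione synthesis 8 of 18 genes were called higher and 0 lower, and all 8 were called with GFP. Without the acinar-high arrays 6 were higher. Csad, which makes the precursor of taurine, read 4.48, 4.48 and 4.65 in HFD, and 8.30 and 8.10 in LTKO, 12.7-fold higher (3.66 ± 0.12, adjusted p = 2.82e-10). Cdo1, which oxidises cysteine, was 1.78-fold higher, Cbs 1.96-fold and Cth 1.57-fold, the last 2 being enzymes of transsulfuration. In methionine and one-carbon metabolism 2 of 23 were higher and 4 lower (1 and 2 without those arrays), with Mat1a, which makes S-adenosylmethionine, higher (0.61 ± 0.07). In the urea cycle and amino acid breakdown 4 of 27 were higher and 8 lower (4 and 3 without those arrays). Otc and Cps1, enzymes of the urea cycle, were lower by differences of -0.71 and -0.41. Asns, the asparagine synthetase, read 3.09, 3.40 and 3.00 in HFD, and 5.70 and 5.34 in LTKO (2.35 ± 0.23). Atf5, a factor of the same stress response as Asns, was 4.22-fold higher, in a list with 5 of 23 higher and 2 lower (4 and 2 without those arrays).

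In bile acid synthesis and transport 8 of 30 were higher and 8 lower, and 6 and 5 without the acinar-high arrays. Cyp8b1, which directs synthesis to cholic acid, read 7.73, 7.84 and 7.84 in HFD, and 8.98 and 9.08 in LTKO (1.23 ± 0.09). Abcc3, an exporter of the basolateral membrane, was 2.93-fold higher, whereas Abcb11, the canalicular bile salt export pump, was 1.84-fold lower. Cyp2c70, which makes the muricholic acids of mice, read 11.89, 11.94 and 12.03 in HFD, and 11.05 and 10.74 in LTKO. Its difference was -1.06 under FST288 and -0.30 under GFP, and the interaction missed the threshold (adjusted p = 0.0578). Of 21 apolipoprotein and lipoprotein genes 3 were higher and 3 lower, and 1 and 1 without those arrays. Lcat, which esterifies cholesterol in plasma, was higher (0.66 ± 0.07), and Mttp, which loads lipid on apolipoprotein B, was lower (-0.48 ± 0.10). The share called over all genes under FST288 was 10.3%.

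Of the TGF-beta family, whose activins follistatin binds, 3 of 40 genes were higher and 4 lower, where 10.3% of all genes were called. Inhbc and Inhbe, the activin subunits made mainly by hepatocytes, were higher. Inhbc read 6.14, 6.18 and 6.03 in HFD, and 7.09 and 7.72 in LTKO (1.29 ± 0.16). Inhbe read 7.47, 7.28 and 7.29 in HFD, and 7.85 and 8.34 in LTKO (0.75 ± 0.13). Inhba, the subunit of activin A, was lower, at 6.55, 5.81 and 6.27 in HFD, and 5.25 and 4.93 in LTKO (-1.12 ± 0.20, adjusted p = 0.00205). With GFP the differences were 1.56, 0.88 and -0.58, the last not called. The receptor genes Tgfbr2 and Bmpr2 were lower, by differences of -0.64 and -0.59, and Id3, a target of BMP signalling, was higher by 1.06. Without the acinar-high arrays Inhbe (0.62), Id3 (0.93) and Tgfbr2 (-0.58) lost their calls, whereas Inhbc (1.27), Inhba (-1.46) and Bmpr2 (-0.63) kept theirs. Hepatokines, the secreted factors of the liver, were 8 higher and 1 lower of 18, with 3 and 0 without these arrays, and they include Fgf21, Igfbp1 and Igfbp2 given above.

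Acute phase genes were 10 higher and 8 lower of 31, and 7 and 4 without the acinar-high arrays. Saa4, a constitutive serum amyloid, read 11.95, 12.24 and 12.14 in HFD, and 10.73 and 10.26 in LTKO (-1.61 ± 0.13). Il1r1, the interleukin 1 receptor, read 8.13, 8.13 and 8.10 in HFD, and 5.87 and 5.74 in LTKO, 4.97-fold lower. Orm2, an orosomucoid, was 2.72-fold higher. Serpins and other protease inhibitors were 10 lower and 2 higher of 21, with 5 lower and 0 higher without the acinar-high arrays. Serpina4-ps1 read 9.40, 8.67 and 9.12 in HFD, and 3.88 and 3.85 in LTKO, 36.7-fold lower.

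Of 17 Kupffer cell and macrophage markers, 12 were called higher and 0 lower in LTKO FST288 livers, with a median of 0.85. With GFP 0 were called, but no member had a called interaction, and whether these counts differ was not tested. Marco, a scavenger receptor of macrophages, read 3.97 to 4.05 in HFD, and 5.48 and 7.59 in LTKO (2.53 ± 0.43, adjusted p = 0.00142). Clec4f, a lectin of Kupffer cells, read 6.46, 6.79 and 6.54 in HFD, and 7.05 and 7.84 in LTKO. The list's summed linear level ranged from 686 to 810 in HFD FST288, and was 1027 and 2234 in LTKO FST288. Without LTKO FST288 replicate 2 the number called was 1 and the median 0.40, and without the acinar-high arrays 0 were called, with a median of 0.96. These 2 genes were chosen after their values were seen. The antigen presentation genes H2-Ab1 (5.88, 6.57 and 6.26 against 7.75 and 9.91) and H2-Aa followed the same array, as did Cxcl13, a B cell chemokine (3.45, 3.97 and 3.80 against 5.17 and 7.41). The part of macrophage content in these 3 genes was not tested. Ifit1, an interferon-stimulated gene, was called lower (-1.36 ± 0.36, adjusted p = 0.0262). With arrays left out in turn its difference ranged from -0.54 (without LTKO FST288 replicate 1) to -2.18 (without LTKO FST288 replicate 2), and it was called in 7 of 10 fits. Without the acinar-high arrays it was not called (adjusted p = 0.421). In the interferon list 2 of 32 were higher and 4 lower (1 and 0 without the acinar-high arrays). In chemokines and inflammation 4 of 30 were higher and 2 lower (1 and 1 without them). Stellate cell markers were 5 higher of 14, while Col3a1 (-0.50), Acta2 (-0.53), Tagln (-0.41) and Lrat (-0.40) were lower but not called. Mmp14, a matrix protease that is not among these markers, read 5.89, 5.51 and 5.67 in HFD, and 7.20 and 7.42 in LTKO. Collagens and matrix genes were 3 higher and 3 lower of 28, with a median of -0.11 (-0.14 without the acinar-high arrays). Over all genes 10.3% were called, the share to set beside the counts of the interferon, chemokine, stellate cell and collagen lists.

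Of the genes of the unfolded protein response, 11 of 23 were called lower and 0 higher, with a median of -0.44, against 4 lower and a median of -0.02 with GFP. Ern1, the stress sensor IRE1, read 7.09, 7.26 and 7.14 in HFD, and 6.13 and 6.17 in LTKO (-1.01 ± 0.12). Herpud1, of the degradation pathway for misfolded proteins, was 2.18-fold lower, and Pdia6, a protein disulfide isomerase, 1.84-fold lower. The HFD FST288 arrays high in acinar markers read Pdia6 at 10.08 and 9.96, against 9.60 on replicate 1. Without these 2 arrays 2 of the 23 were called lower, with a median of -0.27, and with the acinar median as a covariate 4 were. Ern1 was still called without them (-0.94, adjusted p = 0.013). The part of acinar content in the other genes of this list was not tested. Cytosolic ribosomal protein genes were 8 higher of 20 with 0 lower, and 1 higher without these arrays. In oxidative phosphorylation 1 of 31 was higher and 4 lower, whereas with GFP 13 were higher and 1 lower; whether these counts differ was not tested, and no member had a called interaction. Without the acinar-high arrays 0 were higher and 1 lower. Cell cycle genes were 3 higher and 1 lower of 30, and p53 targets 2 higher of 16. Their medians were 0.03 and 0.11, and 0.06 and 0.1 without those arrays. Over all genes 10.3% were called under FST288, and the shares of the cell cycle and p53 lists were close to it.

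The difference between the 2 background differences was called in 48 genes (0.216% of those tested), 26 with a more positive and 22 with a more negative difference under FST288. The same term tests whether the effect of FST288 differed between the backgrounds. At an unadjusted p under 0.05 the number was 2795. The background difference was larger under FST288 in 13 of the 48 genes, smaller in 13, and of opposite sign in 22. In 6 of these 22 both differences were called, and in the others at least 1 of them was not. Cyp3a13, a cytochrome of the drug-oxidising 3A family, read 8.79, 8.99 and 8.85 in HFD, and 6.74 and 6.72 in LTKO under FST288 (-2.15 ± 0.11). With GFP it read 8.52, 8.46 and 8.49 in HFD, and 8.05 and 8.45 in LTKO, so that the interaction was -1.91 (adjusted p = 0.00034). Cyp3a13 is the gene whose interaction was still called without the acinar-high arrays (-1.82, adjusted p = 0.0483), which left 1 call in all.

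Oat, the ornithine aminotransferase of pericentral hepatocytes, was 3.26-fold higher in LTKO under FST288 and 1.76-fold under GFP. Acaa1b, a peroxisomal thiolase, was 3.51-fold and 1.80-fold higher. Dmgdh, which oxidises dimethylglycine, was lower under FST288 (-0.85 ± 0.07) and differed by -0.07 under GFP. Retsat, the retinol saturase, had a smaller difference under FST288, 2.62-fold against 4.61-fold. Meiob, named for meiosis, turned its sign from -0.89 under GFP to 1.21 under FST288, at low levels of 3.59 to 4.90 on the FST288 arrays. Rnf125, a ubiquitin ligase, turned from -0.28 to 0.65. Resf1, a silencer of retroelements, differed by -1.36 under GFP and by 0.38 under FST288, the latter not called. Cyp4a12a, a male-predominant omega-hydroxylase, turned from 0.83 to -0.45, and its HFD arrays read 6.29, 6.07 and 6.0 with GFP and 7.38 to 7.58 with FST288. The interaction of Cyp3a13, Meiob, Resf1, Msmo1, Rnf125, Retsat, Dmgdh, Oat, Acaa1b and Cyp4a12a was called whichever single array was left out. The number of genes called for the background difference, FST288 minus GFP, moved between 11 (without HFD FST288 replicate 3) and 266 (without LTKO FST288 replicate 1) when arrays were left out in turn.

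**Figure D5:**
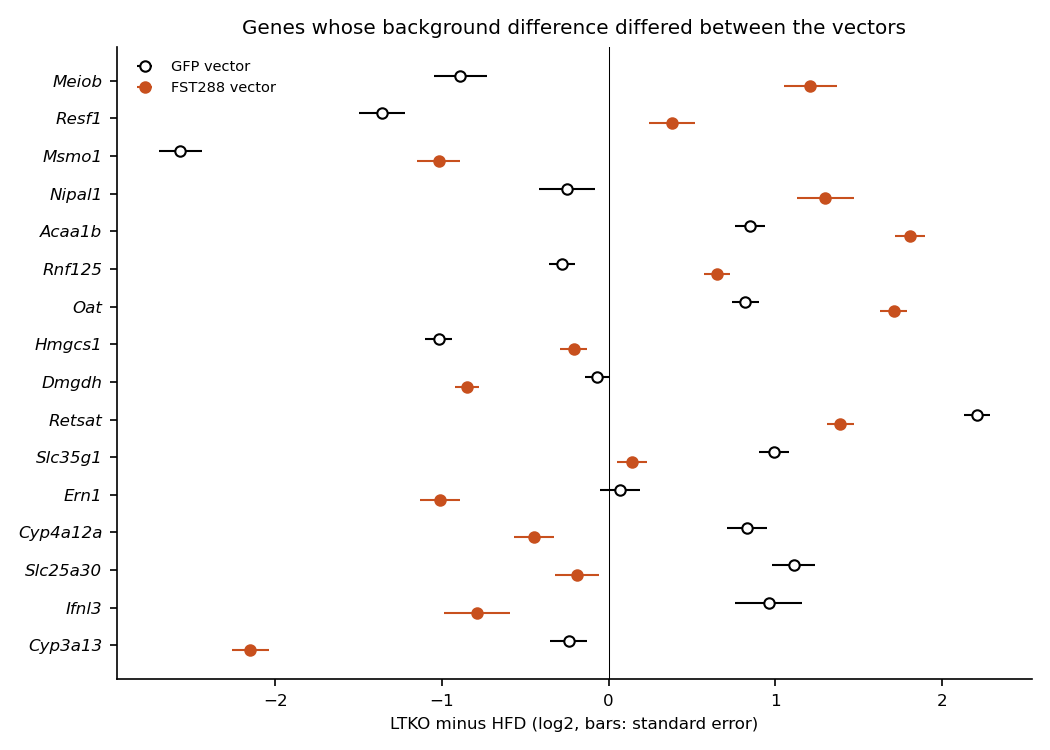
Difference between LTKO and HFD livers (horizontal, log2) with the GFP vector (open points) and the FST288 vector (filled points), with standard errors, for the 8 genes in each direction with the smallest interaction p. Meiob and Rnf125 lie on opposite sides of 0 under the vectors, and Cyp3a13 is at -0.24 with GFP and at -2.15 with FST288.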

How the data were processed

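Liver RNA of 10 samples in 4 groups was measured on Affymetrix whole-transcript arrays, 1 array per sample. The authors deposited log2 values from RMA, run in Affymetrix Expression Console per the submitters' processing notes, and the version of that program is not given in the sources used here. RMA corrects background, brings all arrays to 1 distribution and combines the probes of a cluster, so it can shrink shifts shared by many genes. No header gives the log base, which was taken from the use of RMA and the range of 0.64 to 13.21.

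Of the 41345 clusters, 23521 had 1 gene symbol in the supplied platform annotation, 1814 had several and 16010 were not listed there. Where a gene had more than 1 cluster (1082 genes), the brightest by mean was kept, and dim genes stayed in. In limma 3.58.1 (R 4.3.3), group means were estimated over the 10 arrays and variances moderated by eBayes with an intensity trend (degrees of freedom: 6 residual, 7.155 prior). Contrasts were LTKO minus HFD under FST288, the same under GFP, and their difference. Benjamini-Hochberg adjustment of the two-sided p ran over the 22180 genes of a contrast. The procedure was tested on simulated data. Arrays give no counts, so the number of arrays limits the precision.

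The members, the 36 pathway lists, the 13 marker lists and the rule for named genes were chosen with earlier results of these data known. The rule named the 12 called genes with the largest difference in each direction whose brighter group mean was at least 4. It added the 8 in each direction called under both vectors, the 8 in each direction with the smallest p in the called interaction, up to 8 called members of each list by p, and a fixed set of insulin, FoxO1 and activin genes. Predicted loci, small RNA and chemosensory receptor genes were left out. The text gives a choice of these genes. The Kupffer cell markers Marco and Clec4f, and Cpb1 as an acinar marker, stand beside the counts they belong to. Promoters are from RefSeq tables of GRCm38.p6. Alternatives covered the arrays in the fit, the moderation, weights, normalization, dim genes, clusters, thresholds, each array left out, the replicate number as a block, and the acinar markers.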

Additional observations from a re-analysis of the deposited data

Results flagged for a closer look

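In 48 genes the difference between LTKO and HFD livers under FST288 differed from that under GFP, by limma's test of the interaction. The 20 that the naming rule or the lists brought into the text are given here with the FST288 difference minus the GFP difference on the log2 scale. More positive under FST288 were Meiob (2.10), Resf1 (1.74), Msmo1 (1.55), Nipal1 (1.55), Acaa1b (0.96), Rnf125 (0.93), Csad (0.90), Oat (0.89), Hmgcs1 (0.80) and Itih3 (0.70). More negative under FST288 were Cyp3a13 (-1.91), Ifnl3 (-1.75), Serpina4-ps1 (-1.32), Slc25a30 (-1.30), Cyp4a12a (-1.27), Il1r1 (-1.12), Ern1 (-1.08), Slc35g1 (-0.84), Retsat (-0.82) and Dmgdh (-0.78). With each of the 10 arrays left out in turn, Csad was called in 0 fits. Itih3 and Il1r1 were called in 2, Ern1, Slc35g1 and Serpina4-ps1 in 3, and Hmgcs1, Nipal1 and Ifnl3 in 4. Slc25a30 lost its call without HFD FST288 replicate 3.

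Nipal1, a magnesium transporter of the female-predominant list, was 2.47-fold higher in LTKO under FST288, and its difference under GFP was -0.25. Csad differed by 3.66 under FST288 and 2.77 under GFP. Serpina4-ps1 was 36.7-fold lower under FST288 and 14.7-fold lower under GFP. Without HFD FST288 replicates 2 and 3 all 20 kept the sign of the interaction, and Cyp3a13 alone was called.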

How the results depend on the processing

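No called difference of a named gene changed sign under any alternative. When clusters were averaged per gene, 2287 of all 2293 called genes kept their sign. The count for LTKO FST288 minus HFD FST288 was 2293. It was 1357 at an adjusted p under 0.01, 552 with a log2 difference of at least 1, 1103 with the acinar median as a covariate and 939 without both acinar-high arrays, where the lone HFD FST288 array is assumed to vary like the other groups. Leaving out each array in turn gave 1533 to 2390. The count for LTKO GFP minus HFD GFP was 2902, with 1665 and 546 at the stricter thresholds and 1870 to 3037 with arrays left out, the lowest without LTKO GFP replicate 1. The genes called in both background contrasts numbered 1414, with 875 and 323 at the stricter thresholds, 866 with the covariate, 739 without the acinar-high arrays, and 1074 to 1249 with arrays left out. The count for the background difference, FST288 minus GFP, was 48. It was 3 without the intensity trend, 6 over all clusters, 8 at an adjusted p under 0.01, 5 with the acinar covariate and 1 without the acinar-high arrays; leaving out arrays gave 11 to 266. Which of these shifts reflects fewer arrays and which the acinar transcripts was not tested. Fitting each contrast on its own 5 arrays (added after seeing the data for genes called in both background contrasts) gave 2070, 2553 and 1259.

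The replicate numbers of the titles did not pair the samples, with correlations of deviations between -0.03 and 0.03. With the replicate block the counts were 1856 for LTKO FST288 minus HFD FST288, 2475 for LTKO GFP minus HFD GFP, 37 for the background difference, FST288 minus GFP, and 1169 for genes called in both background contrasts.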

Other observations

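The markers of liver zones named here were chosen after their values were seen. Of 13 pericentral markers, 6 were called higher in LTKO FST288 livers and 1 lower, where 10.3% of all genes were called. Oat, Cyp1a2, Cyp2c29, Rhbg, Axin2 and Tbx3 were called higher, Axin2 and Tbx3 being targets of Wnt signalling (0.82 and 1.53). Slc1a2, a glutamate transporter, was called lower (-0.94). Not called were Glul (0.08), Cyp2e1 (0.14), Lect2 (-0.05), Lgr5 (0.44), Cyp7a1 (0.38) and Cyp27a1 (-0.12). Of 9 periportal markers, 4 were called lower and 1 higher: Cyp2f2 (-1.21), Ass1 (-1.13), Cdh1 (-0.79) and Uroc1 (-0.45) were called lower, and Etnppl, a phosphoethanolamine lyase, was called higher (1.06). The median level of the pericentral markers on an array was 9.02 to 9.18 in HFD FST288 and 8.94 to 9.0 in LTKO FST288. It was the level of 1 gene, Cyp27a1, which was not called, and so does not describe the list. The summed linear level of the pericentral markers was 12124 to 12472 in HFD FST288, and higher in LTKO FST288, at 16095 to 16137. The median level of the periportal markers overlapped, at 8.95 to 9.13 in HFD and 8.96 to 9.13 in LTKO. Their summed linear level did not, at 9739 to 10055 in HFD FST288 and 7442 to 8710 in LTKO FST288. The most abundant genes weigh most in such sums. Ass1 read between 2.70 and 4.10 on these arrays, low for a urea cycle enzyme of hepatocytes, which leaves its cluster in doubt.

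Rgs5, a pericyte gene counted with the stellate cell markers, read 6.87, 6.89 and 6.78 on the HFD FST288 arrays, and 8.36 and 8.35 on the LTKO FST288 arrays (1.51 ± 0.09, limma adjusted p = 1.42e-07). Car3, a carbonic anhydrase counted with the adipocyte markers, was the only 1 of 7 called, and it was lower (-0.94).

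Among the 17824 clusters without a single gene symbol, 297 were called higher and 274 lower in LTKO under FST288 (3.2%). These calls come from a separate fit of all 41345 clusters with its own adjustment. The share is therefore not to be set against the 10.3% of the named genes.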
